A study of Saccharomyces cerevisiae with 2 samples.

Results

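The 40 genes described here encode the nuclear subunits of the yeast respiratory chain and of the ATP synthase, with both cytochromes c and the NADH dehydrogenases that feed the chain. They were chosen by systematic name from what their proteins do. No level entered that rule, but earlier results of these data were known when it was set. All 40 were found among the 6692 genes counted in both libraries. The list holds 4 genes of complex II, 9 of complex III, 9 of complex IV, 13 of the ATP synthase, 2 of cytochrome c and 3 of NADH dehydrogenases. RNA was sequenced from 2 replicate libraries of 1 group, the "-met" condition. Methionine was present in the synthetic medium of the starting cultures of Saccharomyces cerevisiae strain yJL59a (50 mL, OD660 of 0.2), and after a wash the cells went on in medium lacking it. The label gives MATa with ade2-1, can1-100, his3-11,15, ura3-1, trp1-1 and a leu2 allele, and with CDC20::MET3pr-mCherry::URA3 and CWC23::MET3pr-GFP::KanMX. Both libraries carry all of these alleles, so 2 genes are reporters driven by the MET3 promoter, which is active without methionine. The sources used here give neither the carbon source nor the aeration of the cultures. With 1 group, genes were compared with each other and across both replicates, and the effect of methionine depletion itself was not measured.

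The respiratory chain sits in the inner mitochondrial membrane. Yeast lacks the proton-pumping complex I and passes electrons from NADH to ubiquinone through single-protein dehydrogenases, while complex II does so from succinate. Complex III hands the electrons to cytochrome c, complex IV passes them to oxygen, and the ATP synthase uses the resulting proton gradient. The nuclear genes of the chain are known targets of the Hap2, Hap3, Hap4 and Hap5 activator, and several subunits have an alternative isoform that is known from cells short of oxygen.

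Replicate 1 held 34052011 counts and replicate 2 held 35367508 counts. Levels are given as FPKM, the count per kilobase of coding length, scaled to the library total, as mean ± SD of the replicates (n = 2). A coding length was found for 6007 genes, whose median level was 45.9 FPKM and whose 90th percentile was 317 FPKM. The genes that mark mating type went against the strain label. The 5 a-specific genes had a median of 8.96 ± 0.209 FPKM, with none of the 5 above the gene median, against 732 ± 72.4 FPKM for the 3 alpha-specific genes. STE6, MFA2 and STE2 of the a-specific genes had 12.0 ± 0.421, 9.87 ± 1.66 and 4.49 ± 0.0683 FPKM. The alpha-specific MF(ALPHA)1, SAG1 and STE3 had 2401 ± 185, 732 ± 72.4 and 230 ± 28.3 FPKM. They are named below as the libraries labelled MATa. Of 10 general stress genes, 10 were higher in replicate 2 by more than 0.32 on the log2 scale, where 4.20% of all genes were. Their median log2 difference was 0.67, against -0.03 over all genes, and the list was chosen with earlier results of these data known. HSP12, a membrane-protecting stress protein, had 1237 and 2236 FPKM, and CTT1, the cytosolic catalase, had 156 and 229 FPKM in replicates 1 and 2. SPI1, a cell wall protein, had 445 and 973 FPKM, and ALD3, an aldehyde dehydrogenase, had 15.9 and 29.5 FPKM. Their part in the differences between replicates given below was not tested.

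The 40 genes had a median level of 342 ± 25.8 FPKM, and the other 5967 genes had a median of 45.4 ± 1.23 FPKM. Of the 40, 39 lay above the gene median, and NDE2 was the exception. At or above the 90th percentile lay 23 of 40, where 10% of all genes lie. The 40 genes together took 0.825% of the counts in replicate 1 and 0.938% in replicate 2. The position among all genes depends on the division by length, because 26 of the 40 coding regions are under 600 bp. Without that division 6 of the 40 lay at or above the 90th percentile.

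**Figure D1:**
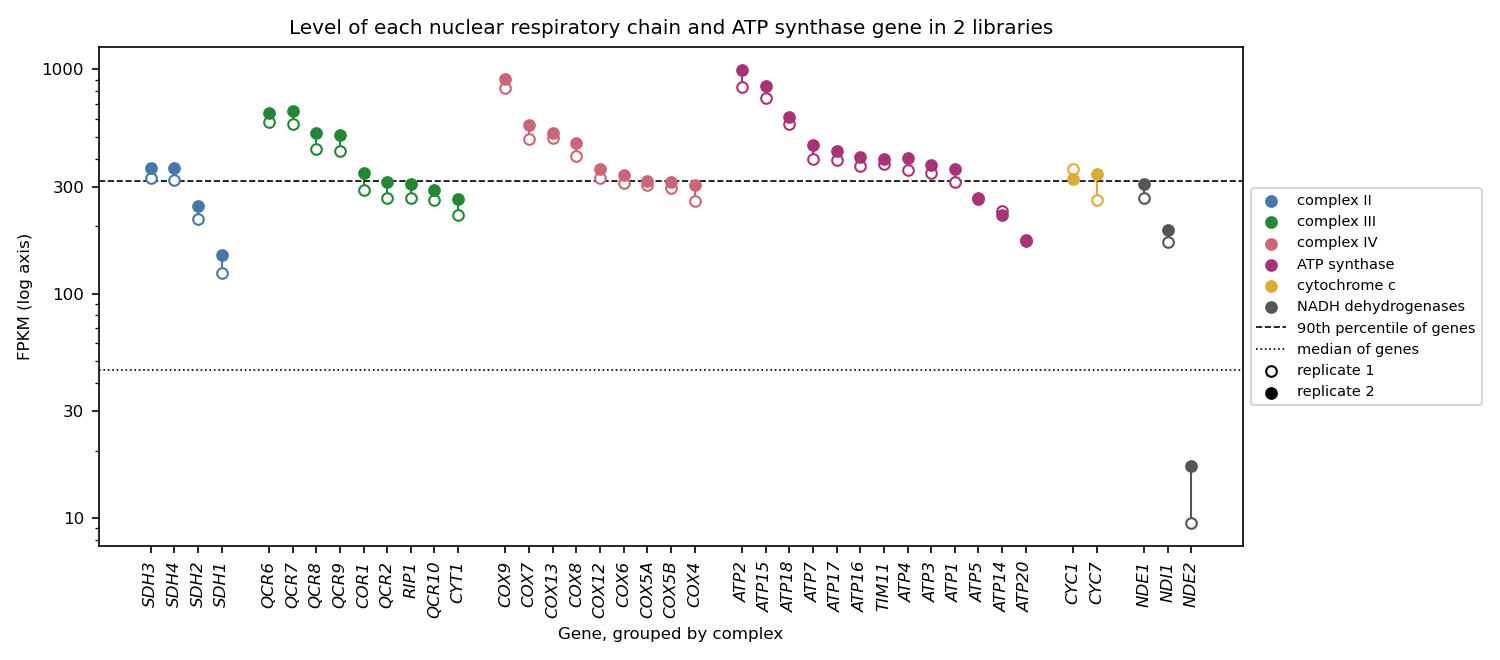
FPKM on a log axis for each of the 40 genes, grouped by complex and sorted by mean, with open circles for replicate 1 and filled circles for replicate 2 of the libraries labelled MATa. The dashed line is the 90th percentile of genes at 317 FPKM and the dotted line the gene median at 45.9 FPKM, and NDE2 is the gene below both.

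The levels of the 40 genes ran from 13.2 ± 5.34 FPKM for NDE2 to 916 ± 112 FPKM for ATP2. Without NDE2 the lowest was SDH1 at 136 ± 17.8 FPKM. Of the 39 neighbours in the order of means, 34 had replicate ranges that overlapped, so adjacent ranks are mostly not separated beyond the replicate spread. Of all 780 pairs of genes, 746 had the same order in both libraries. The medians of the complexes were 388 ± 22.4 FPKM for the ATP synthase, 344 ± 24.7 FPKM for complex IV, 316 ± 38.8 FPKM for complex III and 286 ± 26.1 FPKM for complex II. The order was the same in both libraries. The replicate medians of the ATP synthase, 370 and 402 FPKM, lay above those of complex IV, 326 and 361 FPKM, while complexes IV and III overlapped, as did complexes III and II. The order is not kept without division by length. There complex III came highest at 227 CPM, the count scaled to the library total alone, and complex IV lowest at 139 CPM. Nor is it kept per length with overlapping genes left out, where complex II had 342 FPKM and complex III 316 FPKM. With 200 bases added to each coding length, complex III had 246 FPKM and complex IV 225 FPKM. Coding length and FPKM had a Spearman's rho of -0.52 over the 40 genes, and coding length and CPM one of 0.70. Both are descriptions across genes of the same libraries, and length enters FPKM as its divisor.

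**Figure D2:**
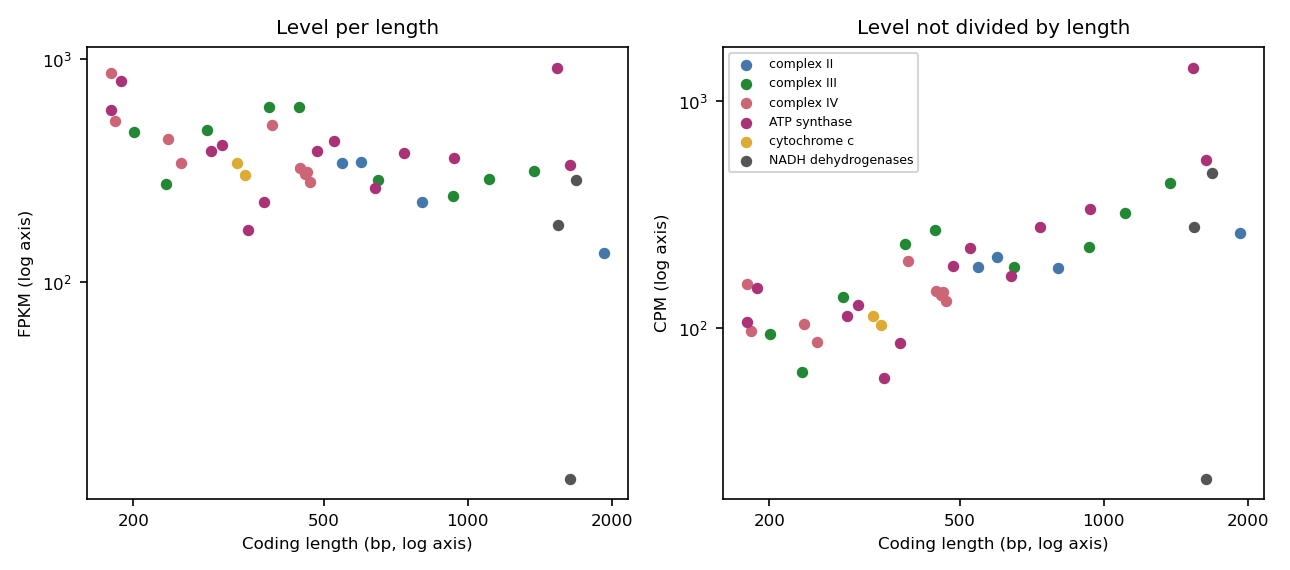
Mean level of each of the 40 genes against coding length, both on log axes, as FPKM on the left and as CPM on the right, coloured by complex. Shorter genes tend to lie higher per length and lower per library, and ATP2 stands at the top of both panels.

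Complex II, succinate dehydrogenase, is the enzyme shared with the tricarboxylic acid cycle. Per coding length, the membrane anchors had more RNA than the catalytic subunits. SDH3, a membrane anchor, had 327 and 365 FPKM in replicates 1 and 2. SDH4, the other anchor, had 320 and 363 FPKM. SDH2, the iron-sulfur subunit, had 215 and 245 FPKM, and SDH1, the flavoprotein, had 123 and 148 FPKM. The replicate ranges of the anchors overlapped with each other, and those of SDH2 and SDH1 lay apart from the anchors and from each other. SDH1 had 0.574 and 0.606 times the FPKM of SDH2 in the libraries. Without division by length SDH1 was the highest of the 4 at 261 ± 34.1 CPM, and SDH3, SDH4 and SDH2 had 207 ± 15.8, 187 ± 16.9 and 184 ± 17.1 CPM. A limit on SDH1 is that 79.1% of its coding bases are free of other genes and open reading frames, so reads can be lost there. The paralogous genes SDH9, SHH3 and SHH4 had 5.54 ± 0.384, 15.7 ± 0.44 and 30.8 ± 1.10 FPKM, each below every gene of complex II.

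Complex III, the cytochrome bc1 complex, had, per coding length, 4 small subunits at high levels and the core and redox subunits below them. QCR6, the acidic subunit near cytochrome c1, had 582 and 641 FPKM. QCR7 had 569 and 650 FPKM, QCR8 443 and 519 FPKM, and QCR9 432 and 508 FPKM. The ranges of QCR6 and QCR7 overlapped, as did those of QCR8 and QCR9, and all 4 stayed above the other 5 genes in both libraries. COR1 and QCR2, the paired core proteins, had 289 and 344 FPKM and 266 and 316 FPKM. Their ratio was almost the same in each library, at 1.09 in both. RIP1, the Rieske iron-sulfur protein, had 266 and 307 FPKM. CYT1, cytochrome c1, had 224 and 264 FPKM, and QCR10, the small subunit that is not needed for activity, had 260 and 289 FPKM. Each of the last 5 genes overlapped its neighbour in the order of means, while COR1, QCR2 and RIP1 lay wholly above CYT1. Without division by length the set turned round, with COR1 and QCR2 highest at 434 ± 53.3 and 322 ± 38.9 CPM, and QCR8, QCR9 and QCR10 lowest at 137 ± 15.1, 94.5 ± 10.9 and 64.2 ± 4.72 CPM. For QCR6 21.6% and for CYT1 65.8% of coding bases are free of other genes and reading frames, and how such reads were counted is not stated. Reads can be lost there, so the place of CYT1 below COR1, QCR2 and RIP1 is not secure.

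Complex IV, cytochrome c oxidase, takes its catalytic core from mitochondrial DNA, and the 9 genes here encode the subunits around that core, with COX5A and COX5B as alternatives for 1 of them. COX9, a subunit of a single membrane span, had 826 and 909 FPKM and stood above the other 8 genes per coding length in both libraries. Without division by length COX13 was the highest at 198 CPM, and COX9 had 156 CPM. COX7 had 490 and 565 FPKM, COX13 495 and 522 FPKM, and COX8 412 and 468 FPKM. COX7 and COX13 overlapped in range, and COX8 lay below both in each library. COX12, a subunit of the intermembrane space, had 326 and 361 FPKM, and COX6, on the matrix side, had 312 and 339 FPKM. COX5A had 304 and 317 FPKM, COX5B had 296 and 315 FPKM, and COX4, a zinc-binding subunit on the matrix side, had 258 and 305 FPKM. The 5 lowest genes thus lay within 281 to 344 FPKM by mean, and each overlapped its neighbour. COX26, a small partner of complex IV that is not among the 40, had 348 and 531 FPKM.

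The ATP synthase held the widest range of the 4 complexes, with ATP2 at 5.32 times the level of ATP20. ATP2, the catalytic beta subunit, had 837 and 996 FPKM. ATP1, the alpha subunit, had 316 and 358 FPKM. The alpha and beta subunits are known to be present in equal numbers in the enzyme, and the RNA of ATP1 was 0.378 and 0.359 times that of ATP2 in the libraries. Of the coding bases of ATP1 84.7% are free of other genes and reading frames. ATP15, the epsilon subunit of the central stalk, had 743 and 846 FPKM and overlapped ATP2 in range, while without division by length they had 150.2 and 1407 CPM. ATP16, the delta subunit, had 370 and 408 FPKM, and ATP3, the gamma subunit, had 343 and 374 FPKM with 59.9% of its bases free. The 5 catalytic-head and central-stalk genes had a median of 389 ± 26.8 FPKM, and the 8 peripheral-stalk and membrane genes had one of 384 ± 23.1 FPKM. These medians differ by less than their replicate spread, while without division by length they were 336 and 119.7 CPM.

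Among the peripheral-stalk genes, ATP7, subunit d, had 398 and 460 FPKM. ATP4, subunit b, had 356 and 402 FPKM. ATP5, the subunit that ties the stalk to the catalytic head, had 263 and 266 FPKM, and ATP14, subunit h, had 233 and 225 FPKM. The stalk thus split into ATP7 and ATP4 above ATP5 and ATP14 in both libraries. In the membrane, ATP18, subunit i/j, had 571 and 615 FPKM, and ATP17, subunit f, had 393 and 433 FPKM. TIM11, subunit e, had 378 and 398 FPKM, and ATP20, subunit g, had 172 and 173 FPKM. Subunits e and g are known to act together in the dimer of the enzyme, and ATP20 was the lowest of the 13 genes while TIM11 was near their median. STF2 and STF1, named as stabilizing factors of the ATP synthase inhibitor, had 2750 ± 474 and 522 ± 39.95 FPKM, both above the median of the complex.

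The NADH dehydrogenases are single proteins that pass electrons to ubiquinone, NDE1 and NDE2 from the outer face of the inner membrane and NDI1 from the matrix side. NDE1 had 266 and 309 FPKM. NDI1 had 169 and 193 FPKM, with 78.0% of its coding bases free of other genes and reading frames. NDE2 had 9.47 and 17.0 FPKM, from 528 and 986 counts. None of these ranges overlapped. NDE1 stood at 28.1 and 18.2 times NDE2, and at 1.58 and 1.60 times NDI1. The first ratio moved between libraries by more than counting error, whose 95% intervals were 25.8 to 30.7 and 17.0 to 19.4, and NDE2 remained the minor form in both.

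COX5A and COX5B encode interchangeable forms of a subunit of complex IV. COX5A is known as the form of cells with oxygen and COX5B as the form that rises when oxygen is short. In these libraries the pair had nearly equal RNA. COX5A (YNL052W, chrXIV:531725-532186, plus strand) had 4787 and 5186 counts, and COX5B (YIL111W, chrIX:155222-155765, plus strand, 1 intron) had 4600 and 5081 counts. The ratio of COX5A to COX5B was 1.03 in replicate 1 and 1.01 in replicate 2, with 95% counting intervals of 0.986 to 1.07 and 0.969 to 1.05. COX5B therefore supplied 49.6% of the pair's FPKM. Both coding regions are wholly free of other genes, and the coding sequences have 67.5% identical bases over 449 aligned positions with no exact run longer than 12 bases. The genes beside COX5B were far lower, with HOS4 at 49.5 ± 0.390 FPKM and HPM1 at 34.2 ± 4.47 FPKM, both on the same strand.

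CYC1 and CYC7 encode iso-1 and iso-2 cytochrome c, and CYC7 is known as the minor form in aerobic growth. CYC1 (YJR048W, chrX:526335-526664, plus strand) had 361 and 324 FPKM from 4056 and 3782 counts. CYC7 (YEL039C, chrV:79636-79977, minus strand) had 263 and 342 FPKM from 3059 and 4137 counts. The ratio of CYC1 to CYC7 was 1.37 in replicate 1, with a 95% counting interval of 1.31 to 1.44, and 0.947 in replicate 2, with an interval of 0.907 to 0.990. The libraries thus disagreed on which form had more RNA, and the mean ratio of 1.16 ± 0.302 does not separate them. The coding sequences have 77.0% identical bases, and the longest exact run they share is 35 bases, shorter than the reads that the methods state. That run is shown in capitals with 8 flanking bases on each side, on the coding strand, because it is the stretch where a read could be hardest to assign. It lies at chrX:526560-526594 in CYC1 and at chrV:79706-79740 in CYC7.
CYC1: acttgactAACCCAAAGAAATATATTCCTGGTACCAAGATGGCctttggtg
CYC7: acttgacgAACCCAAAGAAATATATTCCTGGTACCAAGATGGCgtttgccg
The neighbour UTR2 ends 179 bp from CYC7 on the opposite strand. UTR2 had 378 and 314 FPKM, so it went the other way between the libraries from CYC7.

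Of the other aerobic and hypoxic pairs, 1 was far out of balance and 1 was nearly even. PET9, the main ADP/ATP carrier, had 434 and 447 FPKM, and AAC3, its anaerobic form, had 3.08 and 3.83 FPKM. The ratio of PET9 to AAC3 was 141 and 117 in the libraries. ANB1, the hypoxic form of translation factor eIF5A, had 6.44 and 6.08 FPKM. Its aerobic counterpart HYP2 was listed at 0 counts in both libraries, and 0.0% of its coding bases are free of other reading frames, so no ratio is given. HMG1 and HMG2, the sterol pathway reductases, had 58.1 ± 1.07 and 49.6 ± 4.09 FPKM, with ratios of 1.26 and 1.09 in the libraries. COX5B and CYC7 stood at 306 ± 13.3 and 302 ± 56.1 FPKM. In the same libraries AAC3 and ANB1 lay under 7 FPKM and HMG2 at 49.6 ± 4.09 FPKM. A part of oxygen supply in these levels was not tested.

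**Figure D3:**
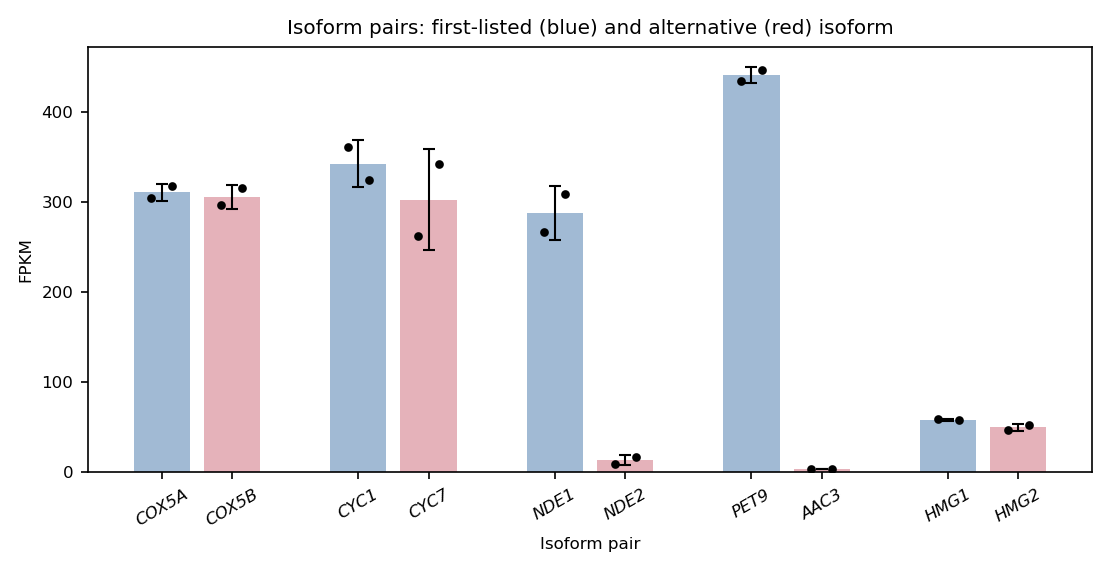
FPKM of 5 isoform pairs, with bars for the mean, error bars for the SD and points for the 2 libraries, and the first-named gene of each pair in blue. COX5A and COX5B stand at 311 and 306 FPKM, CYC1 and CYC7 overlap, and NDE2 and AAC3 are far below their partners.

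The regulators of the chain were also measured. HAP4, the activating subunit whose own level is known to limit the Hap complex, had 296 and 315 FPKM and was the highest of 8 regulators of respiration, heme and hypoxia. MIG1, a glucose repressor, followed at 153 ± 1.24 FPKM, and HAP1, the heme-responsive activator, was the lowest at 20.2 ± 0.976 FPKM. The 8 regulators had a median of 58.2 ± 1.19 FPKM. Per coding length HAP4 averaged 305 ± 13.3 FPKM, below the median of the 40 genes. It stood above the DNA-binding partners HAP2, HAP3 and HAP5, which had 58.5 ± 0.984, 49.4 ± 4.04 and 57.9 ± 2.98 FPKM. Without division by length HAP4 had 508 CPM, above the median of 163 CPM of the 40 genes. HAP1 then had 91.2 CPM, above HAP2, HAP3 and HAP5 at 46.7, 21.5 and 42.2 CPM.

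Sequence around the genes was searched for 5 short motifs in the RefSeq R64 reference, whose strain is not the one sequenced. The CCAAT box, the core of the Hap complex site, was searched on both strands from 250 bases before to 50 bases after the start codon. It was present at 33 of 40 genes, or 82.5%, where 43.3% of 6001 nuclear genes with a full window have it. At least 2 matches were present at 18 of 40, or 45%, where 10.9% of nuclear genes have as many. By complex, 4 of 4 genes of complex II, 7 of 9 of complex III, 8 of 9 of complex IV and 12 of 13 of the ATP synthase had a match. The 7 genes without one were COR1, CYT1, COX4, ATP1, CYC1, CYC7 and NDE2. They ran from 13.2 to 342 FPKM, and the 33 genes with a match ran from 136 to 916 FPKM. The window was then set to 500 bases before the start codon, a choice made after the data were seen. In it 36 of 40 genes had a match, or 90%, where 62.4% of nuclear genes have one. So did 8 of 9 ubiquinone synthesis genes and 9 of 11 tricarboxylic acid cycle genes, or 88.9% and 81.8%. In the shorter window 5 of 9 and 6 of 11 of these had one, or 55.6% and 54.5%. CYT1, COX4, CYC1 and NDE2 were without a match in both windows. A match is a run of letters and not a shown binding site.

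The 30-base windows around the CCAAT boxes of the COX5 pair and of CYC7 are given on the strand of the gene, with the match in capitals, because these isoforms have like RNA levels and unlike upstream sequence. ATTGG is the same box on the other strand. The number in each line is the distance of the first base of the match before the start codon.
COX5A, 170 bases, chrXIV:531543-531572: tgcaaaaatcgtCCAATagacgttttcctc
COX5A, 145 bases, chrXIV:531568-531597: tcctcgtttgtgATTGGccctacgttttgc
COX5B, 247 bases, chrIX:154963-154992: gcatgacactcaCCAATttctttttttgat
COX5B, 72 bases, chrIX:155138-155167: ttaaacaatagaCCAATtatttcaatttaa
CYC7, 453 bases, chrV:80413-80442: aggaccttttgcCCAATgaccattccatat
COX5A and COX5B thus have 2 boxes each, close together in COX5A and apart in COX5B. CYC7 has 1 that lies outside the shorter window, and no CCAAT run was found within 500 bases of CYC1.

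The stress element AGGGG, the core recognised by Msn2 and Msn4, was searched in the same way. It was present at 19 of 40 genes, or 47.5%, where 21.6% of nuclear genes have it, and at 7 of the 10 stress genes. In the 500-base window it was present at 19 of 40 genes as well, where 34.1% of nuclear genes have it. Of the tricarboxylic acid cycle genes 3 of 11 had it in the shorter window and 8 of 11 in the longer. Of the ubiquinone synthesis genes 4 of 9 had it in each window. COX5B and NDE2 had 2 matches each in the shorter window, and in the 500-base window CYC7 had 3. All 10 stress genes had at least 2 in the longer window, where 8.18% of nuclear genes have as many. The matches of COX5B and CYC7 are shown because these are alternative isoforms, and CCCCT is the same element on the other strand.
COX5B, 178 bases, chrIX:155032-155061: aaatgtcatggaCCCCTtaaaattactgag
COX5B, 162 bases, chrIX:155048-155077: ttaaaattactgAGGGGttcagaaaatacc
CYC7, 336 bases, chrV:80296-80325: cgggttatagcgCCCCTtattgaattattt
CYC7, 276 bases, chrV:80236-80265: agtcccccgccgAGGGGtcttttcccacct
CYC7, 192 bases, chrV:80152-80181: taagtggccgcaAGGGGcaaagacaaaggc
COX5A and CYC1, the partners of these genes, had no AGGGG in either window.

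The other upstream motifs stood nearer the share of all genes. ATTGTT, the core of the site of the hypoxic repressor Rox1, was present at 16 of 40 genes, or 40%, where 35.2% of nuclear genes have it. COX5B had 3 matches within 500 bases and COX5A had 1. CGGNNNTA, a partial site of Hap1, was present at 9 of 40, or 22.5%, where 22.1% of nuclear genes have it. A CCAAT and an ATTGTT match can share bases, which happened for 1 of the 53 CCAAT matches of the 40 genes.

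Downstream of the stop codon, a further motif was counted in the 40 genes and in the genes whose products assemble the same complexes. TGTANATA, the core of the site of the RNA-binding protein Puf3, which is known to bind mRNAs of mitochondrial biogenesis factors, was searched on the sense strand within 300 bases. It was present at 9 of 40 genes, or 22.5%, and at 41 of 46 assembly factor genes, or 89.1%, where 16.2% of nuclear genes have it. For CCAAT the order was turned round, with 33 of the 40 subunit genes and 18 of 46 assembly factor genes, or 39.1%. TGTANATA was also present at 6 of 9 ubiquinone synthesis genes and 5 of 8 translational activators of mitochondrial mRNAs, or 66.7% and 62.5%. It was present at 1 of 11 tricarboxylic acid cycle genes, or 9.09%. Windows of 30 bases show the element in members of complex II and the ATP synthase and in COX17, the copper chaperone of complex IV. The number is the distance of its first base past the stop codon.
SDH1, 99 bases, chrXI:169090-169119: actcactaattTGTATATAtacctattaat
ATP1, 50 bases, chrII:38729-38758: tcaaaaagaaaTGTAAATAtagaaatttta
COX17, 32 bases, chrXII:131155-131184: caaccatttctTGTATATAtaagaataggt
COX17, 77 bases, chrXII:131110-131139: tatatactaccTGTAAATAtgtgcgatgca
SDH1 and ATP1 have the element once each, and COX17 has it 2 times. All of these genes were chosen for display after the motif counts were seen. The 9 subunit genes with the element were SDH1, SDH2, COR1, COX8, ATP1, ATP5, ATP14, ATP18 and TIM11, and no gene of cytochrome c or of the NADH dehydrogenases had it.

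**Figure D4:**
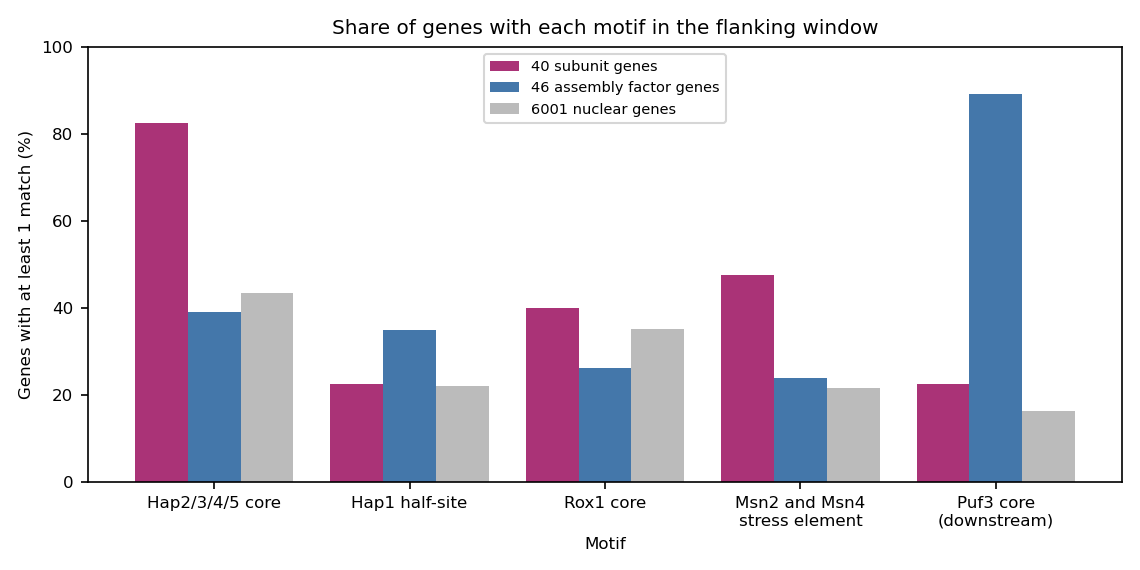
Share of genes, in percent, with at least 1 match to each of 5 motifs, for the 40 subunit genes, the 46 assembly factor genes and 6001 nuclear genes. The subunit genes stand highest for the Hap2/3/4/5 core at 82.5%, and the assembly factor genes stand highest for the Puf3 core at 89.1%.

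Levels differed between these groups as well. The 46 assembly factor genes had a median of 60.3 ± 1.79 FPKM, and the median of the 40 subunit genes was 5.67 times as high, with ratios of 5.25 in replicate 1 and 6.09 in replicate 2. Of the 46, 27 lay above the gene median and 1 at or above the 90th percentile, COX14, a factor in COX1 synthesis, at 327 ± 14.4 FPKM. By complex the assembly factors had medians of 106 FPKM for complex II, 74.8 FPKM for complex III with cytochrome c, 60.3 FPKM for complex IV and 35.1 FPKM for the ATP synthase. Per coding length the subunit medians ran in the opposite order in the main setting only. With overlapping genes left out, complex II had 342 FPKM and complex III 316 FPKM. With 200 bases added to each length, complex III had 246 FPKM and complex IV 225 FPKM. Without division by length both sets ran in the same order, with 227, 197, 169 and 139 CPM for the subunits of complex III, complex II, the ATP synthase and complex IV, and 53.4, 47.9, 39.97 and 32.1 CPM for their assembly factors. SDH8, SDH5 and SDH6 of complex II had 201 ± 16.9, 121 ± 2.84 and 85.3 ± 9.85 FPKM. For complex III and cytochrome c, CYC3, the heme lyase, had 166 ± 4.54 FPKM, CBP4 120.1 ± 5.20 FPKM and FMP25 33.6 ± 1.99 FPKM. COA3 of complex IV had 186 ± 5.90 FPKM, and ATP11 and FMC1 of the ATP synthase had 106 ± 0.365 and 87.0 ± 0.933 FPKM. At the low end, COA6 had 11.9 ± 0.512 FPKM with 14.6% of its bases free, and AEP3 had 13.5 ± 0.486 FPKM. The 8 translational activators of mitochondrial mRNAs were lower still, with a median of 19.3 ± 0.0865 FPKM, from PET309 at 7.98 ± 0.250 FPKM to PET54 at 38.9 ± 2.88 FPKM and PET494 at 53.6 ± 1.29 FPKM.

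The remaining partners of the chain lay between these groups. The 11 tricarboxylic acid cycle genes had a median of 198 ± 13.1 FPKM, from KGD1 at 103 ± 8.81 FPKM to LSC2 at 454 ± 31.4 FPKM and CIT1, citrate synthase, at 587 ± 39.4 FPKM. The 9 genes of ubiquinone synthesis had a median of 85.7 ± 4.65 FPKM, with COQ5 at 277 ± 20.6 FPKM, COQ6 at 95.3 ± 7.09 FPKM and COQ8 at 27.9 ± 2.06 FPKM. The 8 genes of heme synthesis had a median of 72.2 ± 1.36 FPKM, with HEM15, ferrochelatase, at 259 ± 7.76 FPKM, HEM12 at 149 ± 9.99 FPKM and HEM14 at 32.0 ± 3.43 FPKM. Per coding length the medians of these groups lay below that of the 40 genes in both libraries. Without division by length the tricarboxylic acid cycle genes were the higher group, with medians of 163 CPM for the 40 genes and 312 CPM for the cycle genes. The 7 mitochondrially encoded subunits held 22 and 21 counts in all, with OLI1 at 6 and 7 counts, COX1 at 6 and 11 and ATP8 at 0 in both. Yeast mitochondrial mRNAs are known to lack poly(A) tails and mRNA was captured on beads, so these were not compared with the nuclear subunits.

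Between the libraries the 40 genes moved together by a small amount. In replicate 2 FPKM was higher for 38 of 40, where it was higher for 41.3% of all genes. The median difference of log2(FPKM + 1), replicate 2 minus replicate 1, was 0.18, or 1.13-fold, and over all genes it was -0.03. Higher in replicate 2 by more than 0.32 on the log2 scale were 2 of 40, where 4.20% of all genes were. Higher in replicate 1 by as much were 0 of 40, where 7.52% of all genes were. The share past this limit in replicate 2 is near that of all genes, so the 40 genes shared a direction and few of them passed the limit. For 37 of 40 genes the 95% counting interval of the difference left out 0, where 57.5% of the 5867 genes with a count in both libraries did so. The others were ATP5, ATP14 and ATP20. Such an interval narrows as counts rise. The lowest count among the 40 genes was 528, and the 5867 genes include lower ones, so the shares are not at like counts. These intervals hold counting error alone, and no molecular identifiers were used to separate PCR copies.

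By complex the median differences were 0.23 for complex III, 0.19 for complex II, 0.14 for complex IV and 0.14 for the ATP synthase. In complex III all 9 genes were 1.10-fold to 1.19-fold higher in replicate 2. ATP14 and CYC1 were the 2 genes lower in replicate 2, by 0.05 and 0.16 on the log2 scale. CYC7 and NDE2 were the 2 past the limit of 0.32, at 1.30-fold and 1.72-fold on the log2(FPKM + 1) scale. Both are alternative isoforms. Without the 1 added to FPKM the log2 difference of NDE2 was 0.85. COX5B, the other alternative isoform, was 1.06-fold higher and COX5A 1.04-fold higher.

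Other gene groups moved to different extents. All 11 tricarboxylic acid cycle genes and all 9 ubiquinone synthesis genes were higher in replicate 2, with medians of 0.16 and 0.15 on the log2 scale. Of the 46 assembly factors 26 were higher, with a median of 0.03, and of the 8 translational activators 5 were, with a median of 0.05. COX26, INH1, the inhibitor protein of the ATP synthase, and STF2 had differences of 0.61, 0.52 and 0.35. These were larger than in any member of complexes II, III or IV or of the ATP synthase. They come from a list of 14 partner subunits and carriers with a median of 0.10, of which 12 were higher in replicate 2. The stress genes, at 0.67, moved the same way as the 40 genes, and the 19 members with AGGGG had a median difference of 0.19 against 0.15 for the 21 without. The part of the stress genes in this was not tested, and the cultures, the RNA preparation and the library cannot be told apart in 2 libraries.

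**Figure D5:**
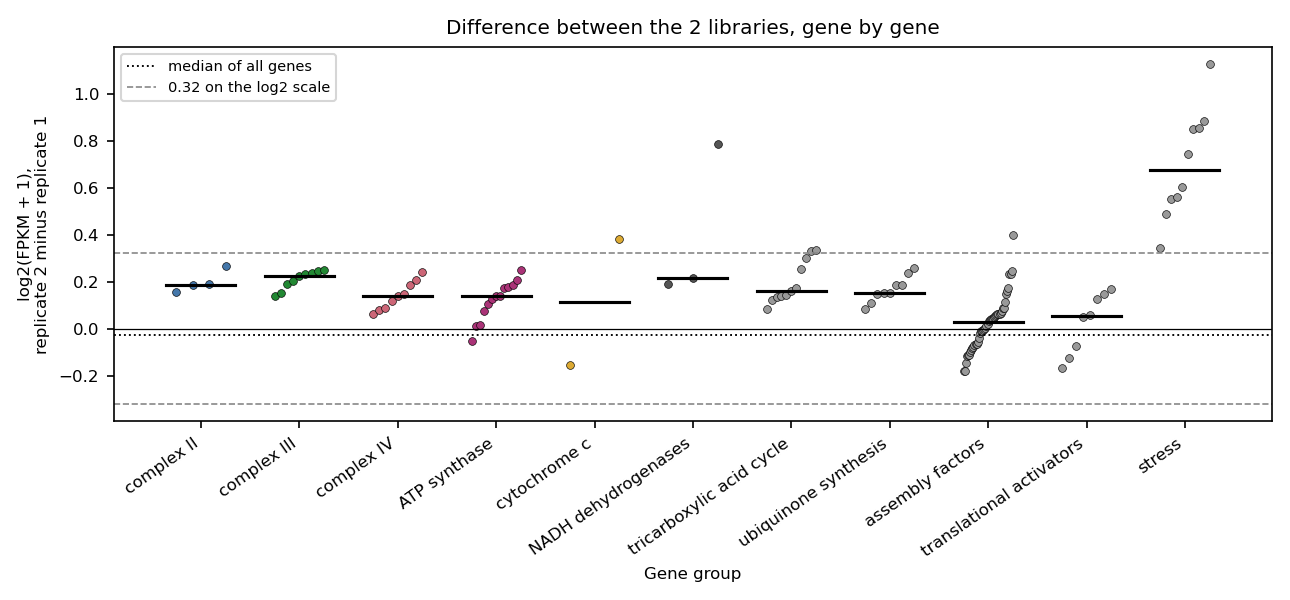
Difference of log2(FPKM + 1), replicate 2 minus replicate 1, for each gene of 11 groups, with bars at the group medians, a dotted line at the median of all genes and dashed lines at 0.32 to either side of 0. Most subunit genes lie between 0 and 0.27, CYC7 and NDE2 lie higher, and the stress genes lie above all complexes.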

How the data were processed

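RNA-seq was analysed for 2 libraries of 1 group, mapped to their replicate numbers by the sample titles. The authors call the deposited values FPKM, but both files hold whole-number counts per gene that sum to different totals, so they were treated as counts as deposited and FPKM was computed here. Per the labels the counts come from featureCounts 2.0.3 on the sacCer3 build, from 50 mL cultures, and the strand setting and gene annotation are not stated. Coding lengths and sequences come from the RefSeq R64 annotation, found for 6007 of 6692 genes. The other 685 genes held 0.281% and 0.292% of counts and stayed in the totals. Shared sequence was measured with blastn 2.17.0 (at least 50 bp at 98% identity), and overlap was taken with other genes and open reading frames from 100 codons up. Sequences were aligned with Biopython 1.88. In R 4.3.3, DESeq2 1.42.0 and edgeR 4.0.16 gave alternative scaling factors only. Level and difference scripts were tested on simulated data.

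There is no second condition, so no test was run and no p-value is given. Differences are on the log2(FPKM + 1) scale, which understates changes of low genes. The study describes its sequencing replicates as biological, and the SD is the spread between these 2 libraries. A count of 3 was the floor for a fold, and none of the ratios given falls under it. Named are the 40 genes, the 2 highest and the lowest of each other list, the isoform pairs, HAP4, HSP12 and CTT1, and genes outside this rule were named after their values were seen. The 40 genes and the lists were chosen with earlier results of these data known. Alternatives were other scalings, lengths, filters, pseudocounts, each library alone and a longer upstream window. Protein sequences were not used here.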

Additional observations from a re-analysis of the deposited data

How the results depend on the processing

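Of 88 values computed under alternative settings, 74 stayed within a set limit, 13 moved and 1 reversed. The reversed value was the ratio of CYC1 to CYC7, at 0.947 with replicate 1 left out. The limit was the replicate spread, or 1.5-fold for counts. For the replicate difference it was the SD across the 40 genes, 0.136. Part of the 74 was fixed in advance. Scaling and the gene filters cannot change a ratio of 2 genes within a library, and 1 library alone mostly lies within the spread of 2. With 200 bases added to each coding length, a stand-in for untranslated parts, the median level was 243 FPKM for the 40 genes, 217 for complex II, 246 for complex III, 225 for complex IV and 281 for the ATP synthase. Without division by length the medians were 163, 197, 227, 139 and 169 CPM in the same order, the genes at or above the 90th percentile numbered 6 in place of 23, and the ratio of subunit to assembly factor medians was 4.27 in place of 5.67. With overlapping genes left out, complex II had 342 FPKM, since SDH1 drops out. edgeR and DESeq2 scaling, a minimum of 10 counts and a pseudocount of 0.1 moved no value they were tried on past its limit. The median replicate difference went from 0.181 to 0.212 with edgeR scaling and to 0.214 with DESeq2 scaling.

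With each library alone the ratio of CYC1 to CYC7 was 0.947 and 1.37, so its direction rests on the library, and NDE1 to NDE2 was 18.2 and 28.1. No paired analysis was possible because there is 1 group. The replicate difference has no value with a library left out. Depth does not limit the levels of the 40 genes, whose lowest count was 528, while 2 libraries give the SD little precision.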
